A study of Homo sapiens with 12 samples.

Results

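Loss of AGO2 was compared with the parental line in HCT116, a human cell line from a colorectal carcinoma, by sequencing of polyadenylated RNA. The comparison is described across the 11877 genes, of 12756 in the authors' deposited table, whose mean level over the series was at least 1 on the log2 counts-per-million (CPM) scale, and genes below that level were set aside. It rests on 3 libraries labelled AGO2_KO and 3 labelled Parental, all harvested 48 hours after seeding, out of 12 libraries in 4 groups. The other groups are a knockout of ANKRD52 and a double knockout of ANKRD52 and CSNK1A1, both in the same line. The labels give no treatment and no time other than the harvest, and do not say whether a group is 1 clone or a pool, how the edit was made, or whether the replicates were separate cultures. Each p-value thus reflects how far libraries of a group differ among themselves, and that spread may be technical. Mean levels are the same in all 3 comparisons with parental, so the authors' fit may have drawn its spread from all 12 libraries. The sources used here do not say.

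AGO2 is the Argonaute protein that holds a microRNA and guides it to messages carrying a match to the microRNA's seed, a short stretch near its 5′ end. Bound Argonaute recruits TNRC6 scaffold proteins, which in turn bring the deadenylation and decapping enzymes that shorten and destroy the message. Human cells carry 4 Argonaute genes, and AGO2 is the member known for slicing fully paired targets. The study's title names a phosphorylation cycle of Argonaute, in which casein kinase 1 alpha (CSNK1A1) adds phosphates and the PP6 phosphatase with its subunit ANKRD52 removes them.

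Values are the authors' own edgeR output: a log2 fold change of knockout over parental, a mean log2 CPM, a likelihood ratio and its p-value adjusted by the Benjamini-Hochberg method over all genes. A gene is said to have risen or fallen where that adjusted p was under 0.05. Standard errors (SE) are approximate, rebuilt from the fold change and the likelihood ratio, and group levels in CPM are implied from the mean level and the 3 deposited fold changes. Levels per library were not used here, so no spread over libraries can be given for a gene, and CPM is not scaled by gene length, so levels are compared within a gene only. The epithelial markers EPCAM, KRT8, KRT18 and CDH1 had implied parental levels from 114 CPM (CDH1) to 1530 CPM (KRT8), while VIL1 was at 0.0485 CPM and CDX1, LGALS4 and CEACAM5 were not listed. Of 12 markers of blood, vessel, stromal, liver and glial cells, 5 were listed, with a summed implied level of 26.1 CPM in the parental and 29.6 CPM in the knockout group, and the highest parental value was 11.9 CPM for COL1A1.

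Of the genes tested, 419 rose (3.53%) and 327 fell (2.75%), so 746 changed either way (6.28%). These shares are the background for every list count below. In a short list 1 or 2 calls move the share by several percentage points, so such counts are not read as results about the list. The changes were small: the median change was 1.37-fold among genes that rose and 1.42-fold among genes that fell, and the smallest change called was 1.18-fold. A change of at least 1.5-fold was reached by 122 of the risen and 123 of the fallen genes. At 2-fold or more the sides were unequal, with 35 rises and 16 falls, and at 4-fold or more there were 6 rises and 0 falls. The median log2 fold change over all genes tested was 0.0039, with quartiles of -0.15 and 0.14 and a median approximate SE of 0.13. The share called was larger at higher levels, from 5.22% of 1761 genes between 1 and 3 on the mean log2 CPM scale to 7.13% of 1907 genes at 7 or more. The 3 genes just above the expression filter, LHX5, SRPX2 and NKX1-2, had log2 fold changes of -0.21, 0.79 and -0.81, and the 3 just below it, CBLN3, LOC284581 and GPNMB, had 0.39, -0.61 and -0.26, in the authors' deposited table. Every call depends on the reference distribution of the likelihood ratio: when edgeR's likelihood ratios were read against F with 1 and 8 degrees of freedom in place of chi-square, 0 genes passed an adjusted p under 0.05, although 1752 had an unadjusted p under 0.05. The 8 degrees of freedom are those of a fit to all 12 libraries in 4 groups, which is assumed here.

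**Figure D1:**
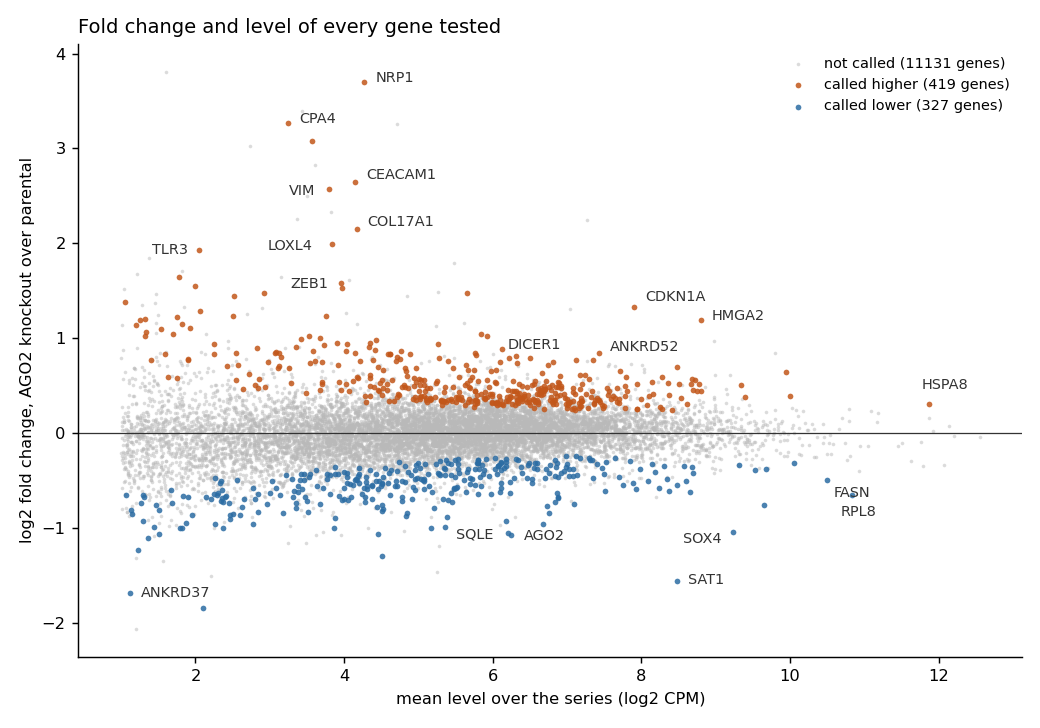
Log2 fold change of AGO2 knockout over parental (vertical axis) against the mean log2 CPM over the series (horizontal axis), 1 point per gene tested, coloured by call. The 419 genes that rose reach higher fold changes than the 327 that fell reach in the other direction, and NRP1 at 3.70 is the highest among the called genes.

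The targeted gene was examined first. AGO2 RNA fell, with a log2 fold change of -1.07 (approximate SE 0.36, adjusted p = 0.0477, authors' deposited table), from an implied 82.0 CPM in the parental group to 39.0 CPM in the knockout, so AGO2 message was lowered and not lost. AGO2 lies near the end of the long arm of chromosome 8, and the 74 genes tested from its neighbour TRAPPC9 to the end of that chromosome had a median log2 fold change of -0.54. There, 37 fell and 0 rose, which is 50% of these genes against 2.46% of genes elsewhere. On the whole of chromosome 8, 59 of 411 genes fell (14.4%) and 8 rose, so falls there were not confined to this segment. The part of the chromosome in falls named below was not tested. The labels do not give the edited part of the gene, so the RNA level does not check the loss of the protein. How much of the fall in AGO2 is shared with its neighbours was not tested. The other Argonaute genes showed no call in the authors' deposited table: AGO1 stood at a log2 fold change of 0.057 (adjusted p = 0.768), AGO3 of 0.054 (adjusted p = 0.816) and AGO4 of -0.16 (adjusted p = 0.368).

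Among the genes that act with AGO2, a few rose and most did not pass. DICER1, the nuclease that cuts microRNA precursors to length, rose 1.71-fold, from an implied 99.5 to 170 CPM, with a log2 fold change of 0.77 (approximate SE 0.092, adjusted p = 3.9e-13) in the authors' deposited table. HSPA8, the heat shock cognate chaperone that helps load small RNAs into Argonaute, rose 1.24-fold (adjusted p = 0.0222), from an implied 3409 CPM in the parental group. The remaining 9 of 11 processing genes tested, among them DROSHA, DGCR8 and XPO5, did not pass. The scaffolds moved in opposite directions in the authors' deposited table: TNRC6A rose by a log2 fold change of 0.34 (adjusted p = 0.0165) and TNRC6C fell by 0.30 (adjusted p = 0.0318). Of 26 deadenylation, decapping and decay genes 2 rose (7.69%, against 3.53% of all genes). They were the decapping enzyme DCP2 (1.31-fold) and the deadenylase recruiter TOB1 (1.33-fold). Among 14 proteins that bind AU-rich or Pumilio elements, the cytoplasmic polyadenylation factor CPEB2 rose 2.15-fold (adjusted p = 0.0332, authors' deposited table). ANKRD52 rose 1.80-fold (adjusted p = 8.78e-07, authors' deposited table), from an implied 155 to 279 CPM, and PPP6C, the catalytic subunit of the same phosphatase, rose 1.23-fold (adjusted p = 0.0127). CSNK1A1, the opposing kinase, was at a log2 fold change of 0.079 (adjusted p = 0.922, authors' deposited table). Of 23 host genes of microRNAs, CTDSPL rose 1.46-fold and MIR22HG 2.10-fold, and WWP2 and CTDSP2 fell 1.21-fold and 1.30-fold. Each direction is 8.70% of that list, against 3.53% of all genes that rose and 2.75% that fell.

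**Figure D2:**
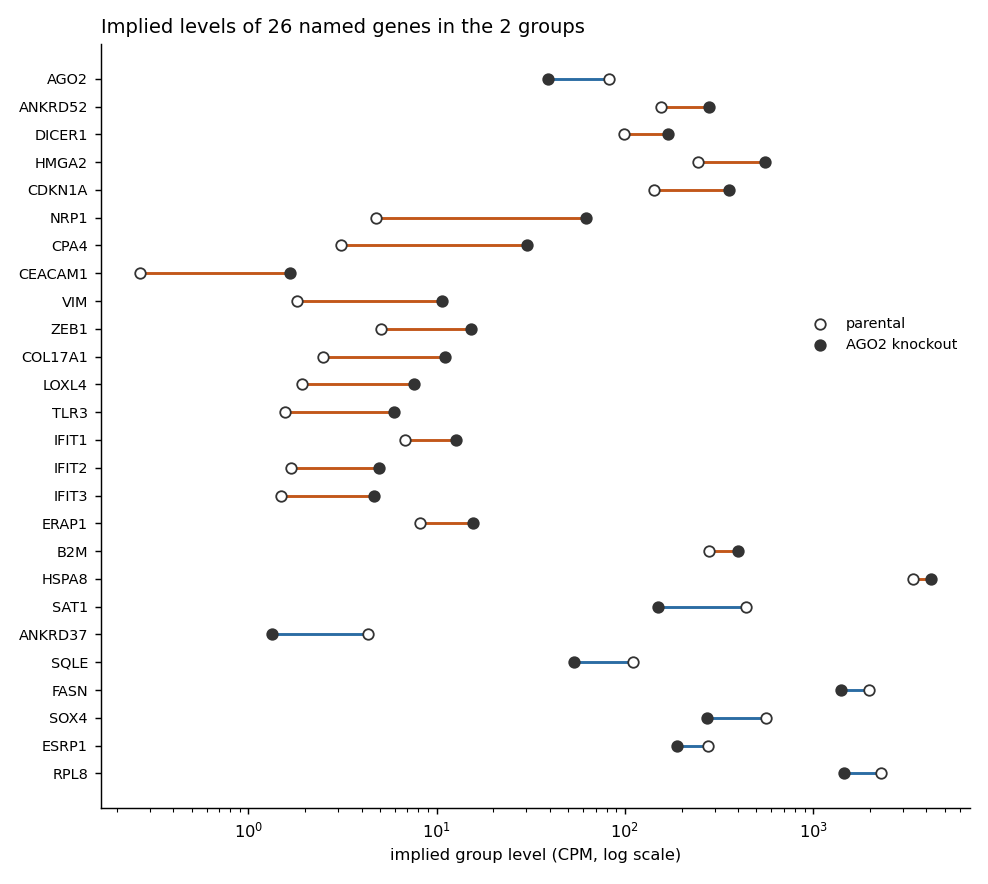
Implied level in CPM (horizontal axis, log scale) of 26 named genes in the parental (open) and AGO2 knockout (filled) groups, joined by a line; no error can be drawn because levels per library were not used. AGO2 moves from 82.0 to 39.0 CPM, NRP1 from 4.77 to 62.0 CPM and SAT1 from 439 to 149 CPM.

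Genes long known as microRNA targets were looked at next. In a list of let-7 linked targets 3 of 16 tested rose (HMGA2, DICER1 and NRAS) with a list median of 0.21, in a list for the miR-17 family and miR-19 2 of 23 rose (CDKN1A and ZNFX1) with a median of 0.17, and in a list for miR-200 3 of 16 rose (QKI, MSN and ZEB1) with a median of 0.028. No member of these 3 lists fell. The shares that rose were 18.75%, 8.70% and 18.75%, against 3.53% of all genes. In a list for miR-15/16 0 of 14 rose and BCL2 fell (7.14%, against 2.75% of all genes). For miR-21 BTG2 was the single riser of 15 (6.67%, against 3.53%). HMGA2, a chromatin protein of embryonic and tumour cells, rose 2.29-fold, from an implied 243 to 558 CPM, and ZNFX1, an antiviral helicase, rose 1.55-fold (adjusted p = 2.51e-10 and 0.00726, authors' deposited table). QKI, an RNA-binding splicing regulator, rose 1.47-fold and MSN, a linker of membrane and actin, 1.43-fold (adjusted p = 0.000521 and 0.00978, authors' deposited table). These lists share members with those on other pathways, so CDKN1A, BTG2 and ZEB1 are counted again elsewhere. ZEB1 lies on chromosome 10, and without that chromosome the miR-200 list held 2 rises and a median of 0.014.

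The sequences behind these targets are shown for the microRNAs whose matches are followed in the rest of the results, as RefSeq mature sequences (GRCh38.p14) with bases 2 to 8, the seed, in capitals. The first 4 are known from epithelial cells, miR-24 is the epithelial family whose targets lay lowest, and miR-122, a liver microRNA, had the smallest difference of the 6 families of other tissues. Levels of microRNAs were not measured here.
miR-200b-3p: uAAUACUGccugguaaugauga
miR-17-5p: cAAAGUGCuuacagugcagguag
miR-103a-3p: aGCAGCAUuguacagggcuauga
let-7a-5p: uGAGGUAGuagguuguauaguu
miR-24-3p: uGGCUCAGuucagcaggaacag
miR-122-5p: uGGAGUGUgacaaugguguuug
The miR-200b seed is shared by 3 RefSeq names and that of miR-17 by 8, so a match cannot be assigned to 1 of them. MIR200B lies at chr1:1167160-1167181 (plus strand) and MIR17 at chr13:91350618-91350640 (plus strand).

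Matches to these seeds in genes that rose are shown from GENCODE 29 transcripts (GRCh38), 5′ to 3′, with the 7 bases that pair with the seed, and the A opposite base 1 where present, in capitals. Each line gives the base of the 3′ UTR, counted from 1, at which the match begins. The set was picked from genes with matches among the smallest p-values or the largest rises, with ANKRD52. It does not show how common matches are in genes that rose.
CDKN1A, let-7, base 943: ggcaccctagttCTACCTCA
CDKN1A, miR-17 family, base 468: agtaaacagatgGCACTTT
CDKN1A, miR-17 family, base 1148: ccccagttcattGCACTTT
DICER1, miR-103 family, base 1034: cacacctaaaatATGCTGCA
DICER1, miR-103 family, base 4162: catacagtaatcATGCTGCA
ZEB1, miR-200b family, base 369: gttttatcttatCAGTATTA
ZEB1, miR-200b family, base 1243: atttttacctatCAGTATTA
ZEB1, miR-200b family, base 1313: cttcaaacctggCAGTATTA
ANKRD52, miR-17 family, base 77: taaacatttaggGCACTTTA
ANKRD52, miR-17 family, base 753: gcccctaaccacGCACTTTA
NKIRAS1, miR-17 family, base 141: aagtcaattaatGCACTTTA
CPA4, let-7, base 310: gcatgtctctctCTACCTCA
All lie in 3′ UTR exons. The CDKN1A window for let-7 is chr6:36686731-36686750 on the plus strand, and its second miR-17 family match begins 2 bases after the start of a miR-130 family match, at base 1148 against base 1146 of the UTR. The DICER1 window at base 1034 is chr14:95089457-95089476 on the minus strand, the ZEB1 window at base 369 is chr10:31527621-31527640 on the plus strand and the ANKRD52 window at base 77 is chr12:56243058-56243077 on the minus strand. The NKIRAS1 window is chr3:23892947-23892966 on the minus strand and that of CPA4 chr7:130322974-130322993 on the plus strand.

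These UTRs differ in how many families they match. ZEB1 carried 6 matches to the miR-200b family in 2549 bases, and DICER1 carried 5 to the miR-103 family and 0 to let-7 in the 4270 bases of its 3′ UTR. ANKRD52 carried matches to 16 of the 25 epithelial families in 5335 bases, and NKIRAS1, an inhibitor of NF-kB signalling that rose 1.72-fold (adjusted p = 7.87e-11, authors' deposited table), carried matches to 5 families in 1435 bases. HMGA2 carried 0 matches in the 533-base UTR of its transcript with the longest coding sequence; its other transcripts were not read for this count. COL17A1, CASP4 and SECTM1, also among the largest rises or the smallest p-values, matched 0 of the 25 epithelial families. Falls occurred with matches too: SOX4 carried matches to 5 families in 2660 bases. Over all genes, the 1300 that matched 8 to 12 families had a median UTR of 3993 bases. The 359 that matched 13 to 25 families had one of 7474 bases, so many matches are usual for long UTRs.

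Across all 11057 genes tested with a 3′ UTR of at least 50 bases, genes with a match to a seed lay slightly higher than genes without for nearly every family. The difference in median log2 fold change was above 0 for 24 of 25 epithelial families, with a median of 0.047, and also for 6 of 6 families of other tissues, with a median of 0.024. It was largest for the miR-200b family (0.081, 1973 genes with a match), the miR-17 family (0.066, 2555 genes), miR-26 (0.062), the miR-221 family (0.061) and the miR-130 family (0.061). For let-7 it was 0.035 and for miR-24 -0.021. Among the families of other tissues it was 0.056 for miR-142, above the value for let-7, then 0.030 for miR-223, 0.026 for miR-208, 0.022 for miR-1, 0.020 for miR-133 and 0.0031 for miR-122. With a miR-142 match 6.55% of genes rose. Of genes with a miR-200b family match 6.28% rose and 1.22% fell, against 3.06% and 3.04% of genes without. For the miR-17 family 5.75% rose and 1.76% fell with a match. In the ANKRD52 and double knockouts the difference was 0.098 and 0.12 for the miR-200b family and 0.069 and 0.11 for the miR-17 family. It was 0.068 and 0.086 for let-7, 0.071 and 0.092 for miR-142 and 0.016 and 0.038 for miR-24. Higher medians with a match are thus not particular to the AGO2 knockout. No test was run on these medians.

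Length and base composition of the UTR moved with the fold change as well. In the tertile of longest UTRs (1858 bases or more) 5.24% of genes rose and 2.06% fell, and in the tertile of shortest UTRs (621 bases or fewer) 2.01% rose and 3.50% fell. In the tertile of UTRs lowest in GC 6.19% rose and 0.98% fell, and in the tertile highest in GC 1.28% rose and 5.32% fell. Compared within tertiles of UTR length, the difference was above 0 in all 3 tertiles for 15 of 25 epithelial families and for 0 of 6 families of other tissues, and the median over families of the mean difference within tertiles was 0.020 and -0.00023. For the miR-200b family it was 0.098, 0.075 and 0.047 from short to long UTRs and for the miR-17 family 0.080, 0.031 and 0.043, whereas for let-7 it was -0.0025, -0.0060 and 0.017 and for miR-142 -0.015, 0.019 and 0.041. Families of other tissues had matches in 201 to 1343 genes and epithelial families in 740 to 2555. Medians of the former rest on fewer genes, so the counts of families are not like for like. Within tertiles of GC content the miR-200b family difference was 0.047, 0.041 and 0.078 from low to high GC. That of the miR-17 family was 0.073, 0.050 and 0.050, and that of let-7 0.060, 0.030 and 0.025. Of the families of other tissues, miR-1 had 0.022, 0.035 and 7.3e-05, and miR-122 had 0.027, 0.029 and -0.00034. The more families a UTR matched, the higher its gene lay, from a median of -0.037 with 0 families (1.79% rose, median UTR 272 bases) to 0.085 with 13 to 25 families (7.52% rose, median UTR 7474 bases). The parts of length, composition and the matches in these medians were not tested apart, and many matches of different families overlap in letters.

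**Figure D3:**
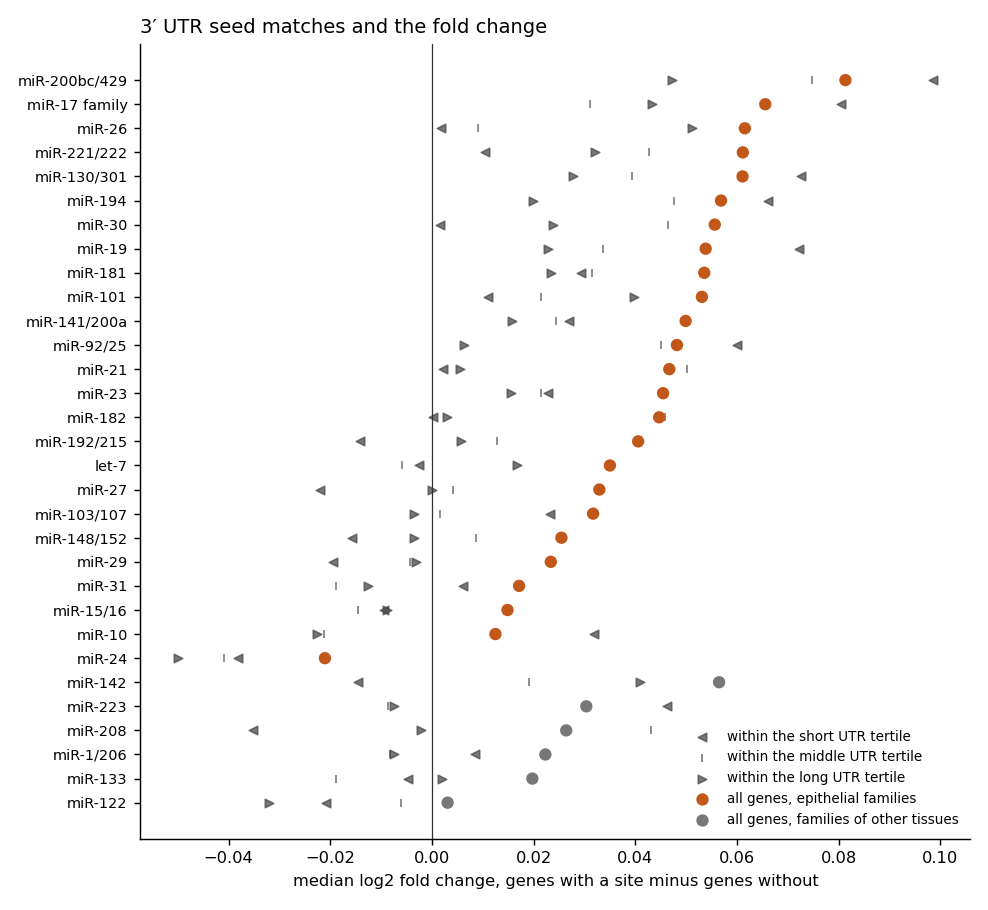
Median log2 fold change of genes with a 3′ UTR match to each family's seed minus that of genes without (horizontal axis), for all genes (circles) and within the short, middle and long tertiles of UTR length (left-pointing marks, bars and right-pointing marks). The miR-200b family, at the top, is highest at 0.081 and stays above 0 in all 3 tertiles, miR-24 is lowest at -0.021, and the 6 families of other tissues at the bottom each have a tertile below 0.

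Targets of p53, the transcription factor that answers DNA damage and is intact in this line, included genes that rose in each of 3 lists. Of 13 arrest and feedback targets 6 rose and 0 fell (list median 0.48, against 0.0039 over all genes), of 13 death and survival targets 4 rose and 0 fell (0.45), and of 13 repair and metabolism targets 5 rose and 0 fell (0.27). These rises are 46.2%, 30.8% and 38.5% of the lists, against 3.53% of all genes. CDKN1A, the inhibitor of cyclin-dependent kinases also called p21, had the smallest p of any gene that rose: a log2 fold change of 1.33 (approximate SE 0.16, adjusted p = 2.46e-13) in the authors' deposited table, or an implied 143 CPM becoming 359 CPM. The ubiquitin ligase MDM2 rose 1.48-fold, the phosphatase PPM1D 1.38-fold, the antiproliferative gene BTG2 1.73-fold, the kinase PLK3 1.47-fold and SESN1, a stress-induced inhibitor of growth signalling, 1.39-fold. Death receptors FAS and TNFRSF10B rose 1.87-fold and 1.36-fold (adjusted p = 0.00229 and 0.000604, authors' deposited table), and the mitochondrial genes PMAIP1, which promotes death, and BCL2L1, which opposes it, rose 1.67-fold and 1.51-fold. FAS lies on chromosome 10, and without that chromosome the death and survival list held 3 rises and a median of 0.45. SPATA18, a mitochondrial quality gene, rose 2.22-fold, the metabolic enzyme C12orf5 (TIGAR) 1.58-fold, the secreted factor GDF15 1.53-fold and the polymerase POLH 1.36-fold. Other members of these lists did not pass in the authors' deposited table: GADD45A stood at a log2 fold change of -0.026 (adjusted p = 0.961), BBC3 of -0.027 (adjusted p = 0.948), BAX of 0.22 (adjusted p = 0.216) and CCNG2 of -0.70 (adjusted p = 0.0907).

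Genes of DNA replication lay lower, with 15.4% of the list falling against 2.75% of all genes. Of 26 licensing and replication genes 4 fell and 0 rose (median -0.12): the licensing factor CDT1 by 1.37-fold, the helicase subunits MCM2 and MCM5 by 1.27-fold and 1.25-fold, and the polymerase subunit POLA1 by 1.24-fold (adjusted p = 0.000759, 0.0122, 0.0499 and 0.0106, authors' deposited table). Of 23 mitosis and spindle genes 0 passed in either direction with the authors' edgeR test, and 19 of 23 had a log2 fold change below 0, with a median of -0.087. BIRC5 and AURKB had the smallest p among them, with log2 fold changes of -0.27 (adjusted p = 0.0637) and -0.26 (adjusted p = 0.106) in the authors' deposited table. RB1, the retinoblastoma protein, rose 1.38-fold (adjusted p = 0.000507, authors' deposited table).

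Interferon-stimulated genes and sensors of foreign RNA lay higher. Of 15 interferon-stimulated genes tested 4 rose and 0 fell (median 0.39), and of 19 sensor and signalling genes 2 rose and 0 fell, with 17 of 19 above 0 (median 0.29). These rises are 26.7% and 10.5% of the lists, against 3.53% of all genes. TLR3, the endosomal receptor for double-stranded RNA, rose by a log2 fold change of 1.93, from an implied 1.57 to 5.96 CPM (adjusted p = 2.05e-05, authors' deposited table). The IFIT proteins, which bind viral RNA ends, rose 1.88-fold (IFIT1), 2.93-fold (IFIT2) and 3.12-fold (IFIT3), with implied levels in the knockout of 12.7, 4.94 and 4.67 CPM. These 3 genes lie on chromosome 10, where 7.25% of 469 genes rose against 3.37% of genes elsewhere, and without that chromosome the list held 1 rise, with a median of 0.39. The part of the chromosome in these rises was not tested. OAS3 rose 1.33-fold from 90.3 CPM. Other members did not pass in the authors' deposited table, among them ISG15 at 0.13 (adjusted p = 0.663) and IFI6 at 0.45 (adjusted p = 0.12). In antigen presentation on HLA class I, 3 of 8 rose (37.5%, against 3.53% of all genes). They were the peptide trimmers ERAP1 (1.93-fold) and ERAP2 (2.29-fold) and the light chain B2M (1.44-fold, implied 278 to 401 CPM). The NF-kB feedback genes BIRC3 and NFKBIA rose 1.80-fold and 1.36-fold.

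Promoters of these lists were searched for the interferon response element, spelled here as the letters GAAANNGAAA on either strand. The search used RefSeq windows (GRCh38.p14) of 250 bases before to 50 after each start. The element stood in 3.57% of 35116 promoters and, counted by gene, in 3.78% of 8847 genes tested that had a promoter window. Among list members with a window it stood in 9 of 11 interferon-stimulated genes, 3 of 12 sensor and signalling genes and 5 of 7 antigen presentation genes. Interferon-stimulated genes are listed for their response to interferon, so a high share follows from the choice of list. It says nothing about the knockout. Windows of genes that rose are shown on the gene's strand, with the element, or its reverse complement, in capitals.
IFIT1: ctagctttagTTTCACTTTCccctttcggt
IFIT3: gttccatcagTTTCACTTTCctttcccctt
OAS3: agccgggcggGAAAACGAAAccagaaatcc
TLR3: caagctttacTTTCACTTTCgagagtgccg
ERAP1: cgggctccacTTTCACTTTCggtcctgggg
ERAP2: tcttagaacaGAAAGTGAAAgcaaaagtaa
B2M: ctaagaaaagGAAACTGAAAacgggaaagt
These windows are chr10:89392497-89392526 (IFIT1), chr10:89332468-89332497 (IFIT3), chr12:112938452-112938481 (OAS3), chr4:186069142-186069171 (TLR3), chr5:96807924-96807953 (ERAP1, minus strand), chr5:96876460-96876489 (ERAP2) and chr15:44711369-44711398 (B2M), on the plus strand unless stated. The same letters stood in promoters of genes that did not pass in the authors' deposited table, such as IFIT5 (log2 fold change 0.15), HERC5 (-0.062), ISG20 (-0.20) and TAP2 (-0.26). The match is a description of these windows and does not show a bound site.

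Of the 12 largest rises 7 lie on chromosome 10: NRP1, VIM, COL17A1, LOXL4, IFIT3, ZEB1 and IFIT2. NRP1, a coreceptor for semaphorins and VEGF, rose 12.99-fold (log2 fold change 3.70, approximate SE 0.96, adjusted p = 0.00671, authors' deposited table), from an implied 4.77 to 62.0 CPM. It was the 1 gene of 19 neuropilins, semaphorins and plexins to pass. CPA4, a secreted carboxypeptidase, rose 9.67-fold (adjusted p = 2.09e-06), from 3.12 to 30.2 CPM. CEACAM1, an adhesion molecule, rose 6.24-fold, but from 0.266 to 1.66 CPM, and its mean level over the series was carried by the double knockout, where its log2 fold change was 7.99 in the authors' deposited table. COL17A1, a hemidesmosome collagen, rose 4.43-fold, LOXL4, a collagen crosslinking enzyme, 3.97-fold and LAMA4, a laminin chain, 2.30-fold (adjusted p = 0.000104, 0.0461 and 0.0348, authors' deposited table). COL6A2 fell 1.26-fold, and the remaining 24 of 28 collagen, laminin and crosslinking genes did not pass. Without chromosome 10 that list held 1 rise and 1 fall. ITGB1, the most widely shared integrin chain, rose 1.42-fold from an implied 561 CPM, and CASP4, an inflammatory caspase, 2.88-fold. ITGB1 also lies on chromosome 10, and without that chromosome the integrin list held 0 rises. ALPP, placental alkaline phosphatase, was called higher, but its parental level was below the level of 3 reads in the whole group, and a fold is left out.

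The largest falls were smaller than the largest rises. LOC100505839 fell 3.59-fold, from an implied 0.396 to 0.110 CPM, and its mean level over the series was carried by the double knockout, where its log2 fold change was 5.36 in the authors' deposited table. IGSF9, an immunoglobulin superfamily adhesion protein, fell 2.46-fold from 25.3 CPM, CITED4, a transcriptional coregulator, 2.35-fold, DLGAP1, a synaptic scaffold, 2.15-fold, and KCNH8, a potassium channel, 2.09-fold (adjusted p = 0.00198, 0.000122, 0.0271 and 0.0374, authors' deposited table). ARHGEF19, a guanine nucleotide exchange factor, fell 1.65-fold and LOC100128338 1.84-fold, with adjusted p of 1.92e-07 and 3.1e-05. CLTC, the clathrin heavy chain, and BMP4, a secreted growth factor, rose 1.31-fold and 1.30-fold from implied levels of 897 and 503 CPM.

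Mesenchymal genes rose in part. VIM, the intermediate filament of mesenchymal cells, rose 5.93-fold (approximate SE 0.60 on the log2 scale, adjusted p = 0.00175), from an implied 1.81 to 10.7 CPM, and ZEB1, a repressor of epithelial genes, rose by a log2 fold change of 1.58 (adjusted p = 0.0465), both from the authors' deposited table. The other 9 of 11 mesenchymal genes did not pass, among them FN1, which stood at 0.0078 on the log2 scale (adjusted p = 0.992), and the list median was 0.074. VIM and ZEB1 both lie on chromosome 10, and without that chromosome the list held 0 rises and a median of 0.028. Of 25 epithelial junction genes and regulators 0 rose and 2 fell: the splicing factor ESRP1 by 1.47-fold and the desmosome plaque protein PKP3 by 1.38-fold (adjusted p = 0.0275 and 0.0474, authors' deposited table). The list median was -0.28, 5 of 25 members lay above 0, and the adhesion molecule CDH1 stood at -0.54 (adjusted p = 0.473). ESRP1 lies on chromosome 8, outside the segment that holds AGO2.

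**Figure D4:**
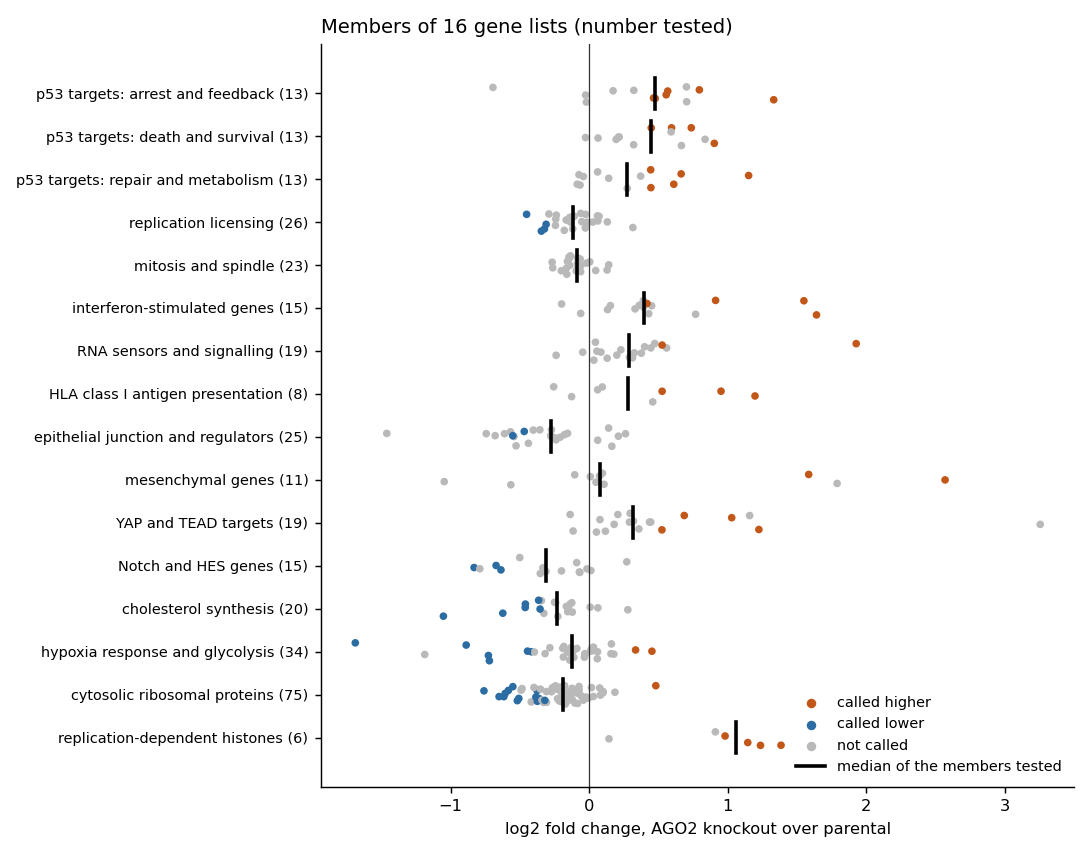
Log2 fold change of AGO2 knockout over parental (horizontal axis) for the members tested of 16 gene lists, 1 point per gene coloured by call, with the list median as a black bar and the number tested in brackets. The 3 lists of p53 targets hold 15 rises and 0 falls with medians from 0.27 to 0.48, while cholesterol synthesis holds 0 rises and 6 falls with a median of -0.24.

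Signalling genes showed scattered calls. Targets of YAP and TEAD, the transcriptional effectors of the Hippo pathway, held 4 rises and 0 falls of 19 (median 0.32): the receptor kinase AXL by 1.61-fold, the ectonucleotidase NT5E by 2.04-fold, CTGF by 2.34-fold and AMOTL2 by 1.44-fold (adjusted p = 5.6e-06, 0.00116, 0.018 and 0.0379, authors' deposited table). CYR61, another classical target, stood at 0.44 (adjusted p = 0.0649). The 4 rises are 21.1% of the YAP and TEAD list, against 3.53% of all genes. Notch and HES genes held 3 falls and 0 rises of 15 (median -0.31), in the receptor NOTCH3 (1.56-fold) and the transcription factors HES6 (1.78-fold) and HES4 (1.59-fold). These falls are 20% of that list, against 2.75% of all genes. The Wnt-responsive receptors EPHB3 and EPHB2 fell 1.53-fold and 1.56-fold, alone among 20 Wnt feedback and target genes. SOX4, a progenitor transcription factor, fell 2.06-fold from an implied 561 to 272 CPM (adjusted p = 0.0166, authors' deposited table). Immediate early genes split, with FOSL1 and JUN up 1.71-fold and 1.49-fold, and FOS and JUND down 1.68-fold and 1.34-fold. The EGF receptor ligands EREG and HBEGF rose 1.56-fold and 1.66-fold, EREG from an implied 691 CPM.

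Lipid and energy genes lay lower. Of 20 cholesterol synthesis enzymes 6 fell and 0 rose (median -0.24), among them SQLE by 2.07-fold, MVD by 1.54-fold, DHCR7 by 1.38-fold, FDFT1 by 1.29-fold and LSS by 1.28-fold, with adjusted p from 3.55e-05 (SQLE) to 0.0244 (FDFT1) in the authors' deposited table. The 6 falls are 30% of the cholesterol list, against 2.75% of all genes. SQLE and FDFT1 lie on chromosome 8, outside the segment that holds AGO2. FASN, the fatty acid synthase, fell 1.41-fold from an implied 1976 to 1398 CPM, alone among 18 fatty acid genes (5.56%). Of 34 hypoxia and glycolysis genes 6 fell and 2 rose: the hypoxia-induced ANKRD37 fell 3.22-fold, ALDOC 1.85-fold, ADM 1.66-fold, PFKFB4 1.65-fold, PFKL 1.36-fold and KDM3A 1.34-fold, whereas HIF1A, the hypoxia factor itself, rose 1.37-fold and the oxidase ERO1L 1.26-fold. The falls are 17.6% and the rises 5.88% of the hypoxia list, against 2.75% and 3.53% of all genes. SAT1, the enzyme that begins polyamine breakdown, fell 2.94-fold (log2 fold change -1.56, approximate SE 0.35, adjusted p = 0.00103, authors' deposited table) and was the 1 of 15 polyamine genes to pass. In amino acid and unfolded protein stress the chaperones DNAJB9 and DNAJC3 and the factor DDIT3 rose 1.69-fold, 1.25-fold and 1.68-fold, and PHGDH and DDIT4 fell 1.51-fold and 1.94-fold.

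Ribosomal protein genes lay lower as a class, with 13 falls and 1 rise of 75 and 8 of 75 above 0 (median -0.19). The falls are 17.3% of the class, against 2.75% of all genes. RPLP1 fell 1.69-fold, RPL8 1.57-fold, RPL13 1.53-fold, RPL36 1.42-fold and RPS20 1.47-fold, and the falls in RPL3 and RPS6 were 1.30-fold and 1.25-fold. RPL8 is among the neighbours of AGO2, and the class held 12 falls without that segment. RPS20 also lies on chromosome 8, outside the segment. The riser was RPS27L, a ribosomal protein paralogue known as a p53 target, at a log2 fold change of 0.48 (adjusted p = 0.00367, authors' deposited table). Reads of ribosomal proteins can be shared with processed pseudogenes, so their counts are uncertain. Oxidative phosphorylation genes held 3 falls and 0 rises of 89 (median -0.053), a share of 3.37% against 2.75% of all genes tested. Histone genes of the replication-dependent class, whose messages normally lack a poly(A) tail, held 4 rises of 6 (66.7%, against 3.53% of all genes). They were HIST1H2BK 1.97-fold, HIST1H1C 2.36-fold, HIST1H2AC 2.21-fold and HIST2H2BE 2.61-fold, all from implied parental levels between 1.12 and 13.5 CPM. Family members of such likeness may share reads.

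The ANKRD52 knockout removes a subunit of the phosphatase that acts on Argonaute, and its table shares the parental libraries with the present one, so each gene was given its log2 fold change here minus that in the ANKRD52 knockout. Taking the mean of the squared SEs of the pair as its variance, 1120 of 11877 genes differed at an adjusted p under 0.05 (9.43%), and with their sum 94 did. CDKN1A had 1.33 in the AGO2 and 0.14 in the ANKRD52 knockout, in the authors' deposited tables, a difference of 1.19 (adjusted p = 5.18e-11, or 0.000157 with the sum). GDF15 rose in one and fell in the other, at 0.61 and -0.99, and FAS had 0.90 and -0.17 (difference adjusted p = 1.98e-16 and 5.95e-05, or 6.25e-07 and 0.0465 with the sum). SAT1 had -1.56 against 0.75 and the autophagy gene ATG12 0.61 against -0.048 (difference adjusted p = 1.81e-08 and 6.44e-10, or 0.0018 and 0.000422 with the sum). CPA4 had 3.27 against 0.060 (0.00763 with the sum). NRP1 had 3.70 against 0.43, and its difference passed with the mean (adjusted p = 0.00811) but not with the sum (adjusted p = 0.273). The ANKRD52 knockout had list medians of -0.25 for cholesterol synthesis and -0.29 for ribosomal proteins. For interferon-stimulated genes and histones it had 0.41 and 0.88. The double knockout had -1.11, -0.39, 0.31 and 0.45, so these shifts are not particular to the AGO2 knockout. The 3 p53 lists had -0.059, 0.062 and -0.055 in the ANKRD52 knockout and 0.37, 0.67 and 0.68 in the double knockout. These medians were not compared by a test.

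Some genes moved far in the ANKRD52 knockout and did not pass in the AGO2 knockout. SPARC, a matrix protein, stood at 1.79 (adjusted p = 0.21) against 8.04, and SEMA3A, a secreted semaphorin and ligand of NRP1, -0.33 (adjusted p = 0.796) against 3.96, in the authors' deposited tables (difference adjusted p = 2.14e-07 and 5.59e-09). GRIK2, TNFSF4 and CLDN2 had 0.63, 0.084 and 1.52 against 4.09, 3.43 and 4.74, none of the first 3 values being called, and their differences passed with the mean (adjusted p = 0.0011, 0.00838 and 0.000127) but not with the sum (0.143, 0.275 and 0.0606). In the other direction CACNB4, a calcium channel subunit, had 1.16 (adjusted p = 0.106) against -1.67 (difference adjusted p = 5.37e-07, or 0.00689 with the sum), TTN 0.11 against -2.72, GALNT3 -0.51 against -2.39 and NRG1 0.41 against -1.46. The differences of TTN, GALNT3 and NRG1 passed with the mean (adjusted p = 0.000451, 0.0308 and 0.036) but not with the sum (0.1, 0.421 and 0.442). NRG1 was at an implied 0.140 CPM in the parental and 0.186 CPM in the AGO2 knockout group, and its mean level was carried by the double knockout, where its log2 fold change was 9.18. The levels of SPARC, GRIK2 and CLDN2 in these 2 groups were also low, at 0.323 and 1.11 CPM, 0.174 and 0.269 CPM, and 0.234 and 0.669 CPM. VIM had 2.57 against 4.44 (difference adjusted p = 0.0345, or 0.438 with the sum) and HMGA2 1.20 against 1.77 (0.00937, or 0.286 with the sum). For DICER1, at 0.77 and 0.92, IFIT1, at 0.91 and 1.04, and ERAP1, at 0.95 and 1.06, the difference did not pass (adjusted p = 0.354, 0.801 and 0.787), which does not show that they are alike. HAS2 was among the 6 largest differences downward, but its level in the AGO2 knockout was below the level of 3 reads in the whole group. AGO2 itself had -1.07 against 0.33 (difference adjusted p = 0.00307, or 0.197 with the sum), and TNRC6C -0.30 against 0.41 (8.37e-11, or 0.000169 with the sum).

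**Figure D5:**
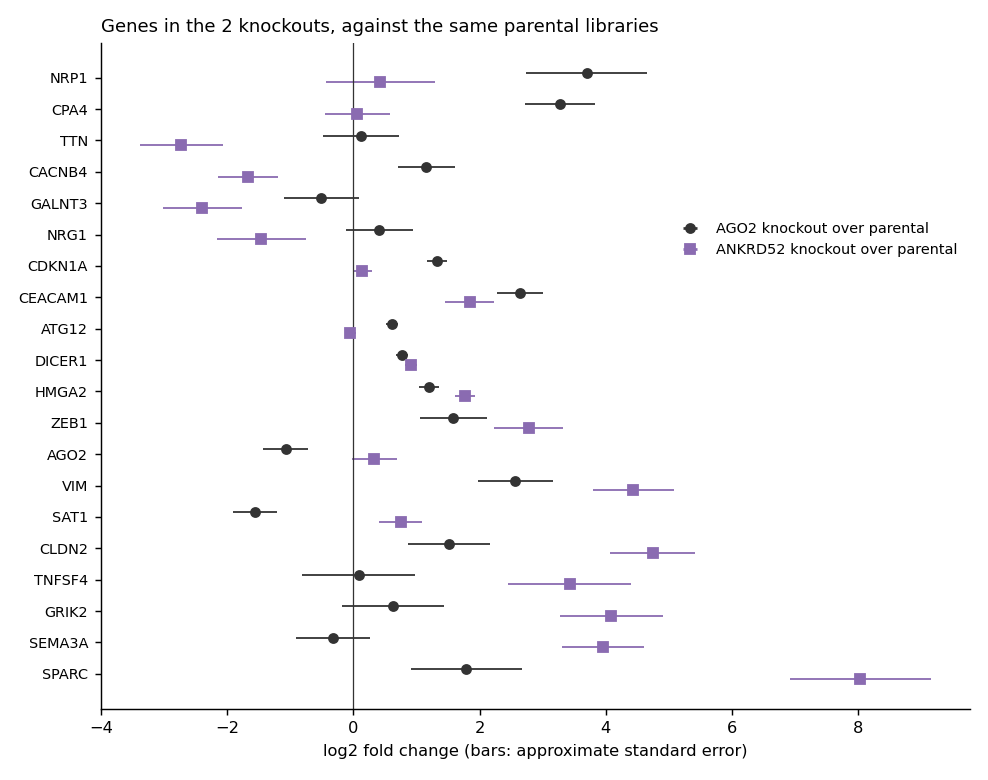
Log2 fold change over the same parental libraries (horizontal axis) in the AGO2 knockout (circles) and the ANKRD52 knockout (squares) for named genes, with bars of 1 approximate SE. CDKN1A, CPA4 and ATG12 lie near 0 in the ANKRD52 knockout and above 0 in the AGO2 knockout, SPARC and SEMA3A lie at 8.04 and 3.96 in the ANKRD52 knockout, and DICER1 lies close together in both.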

How the data were processed

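Polyadenylated RNA of 12 HCT116 libraries was sequenced with a stranded kit, per the labels' protocols. Tools named in the submitters' processing notes are edgeR 3.8.6, featureCounts 1.4.6 and TopHat2 2.0.12, and the build named is hg19; what each did is not given in the sources used here. Each knockout has 1 table against parental, of edgeR columns per the file headers. Log2 fold changes and mean log2 CPM are the authors'. The likelihood ratio is a score as deposited. The p-value and adjusted p-value are also the authors'. A check found each deposited p-value equal to the chi-square tail of its likelihood ratio, and the adjusted ones to be Benjamini-Hochberg over 12756 genes. Counts per library were not used here, so depth is unknown and no count test was run, although the design provided for one. A gene counts as called where the deposited adjusted p is under 0.05.

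An approximate SE is the size of a log2 fold change divided by the root of its likelihood ratio. Implied group levels weight the 4 groups equally. Below 0.0345 CPM, the level of 3 reads if the authors' edgeR prior count was 0.125, no fold is given. The difference between knockouts used the mean of both squared SEs and a normal test. On simulated data over 11876 genes it recovered 90% of 200 log2 changes of 1, with 4.76% false among calls. The simulation gave every group the same known spread for a gene, as the mean assumes. It therefore cannot choose between the mean and the sum. UTRs of at least 50 bases came from the GENCODE 29 transcript with the longest coding sequence; 11838 symbols matched directly, 610 by a synonym and 308 not. Of the microRNA families, 31 matched RefSeq names; miR-124 and miR-451 are named only. Windows were read from RefSeq tables and reference transcripts of GRCh38, not the authors' build. Sequences on AGO2's chromosome were not printed.

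Named are AGO2, ANKRD52, CSNK1A1 and the other Argonautes; the 12 largest changes, the 8 smallest p and the 5 highest levels each way among called genes; up to 6 called members each way per list, or the 2 smallest p where none was called; and the 6 largest differences from the ANKRD52 knockout each way. A few further members, named as not passing or for the comparison of knockouts, were chosen after their values were seen. Members, lists and tests were chosen with earlier results of these data known. Some list members counted as called are not reported here by name. Lists were given counts and medians with no test. Python 3.11.15, pandas 2.3.3, numpy 2.4.6, scipy 1.17.1 and matplotlib 3.10.9 were used. Alternatives covered the call threshold, expression filter, reference distribution, centring, minimum change, variance of the difference and definition of a site.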

Additional observations from a re-analysis of the deposited data

How the results depend on the processing

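The 746 called genes (419 higher, 327 lower) became 265 (161 and 104) at an adjusted p under 0.01, 1223 (677 and 546) at 0.1, and 245 (122 and 123) where a change of at least 1.5-fold was also asked for. Read against F with 1 and 8 degrees of freedom in place of chi-square, the count was 0 in total, 0 higher and 0 lower; the lowest adjusted p was then 0.185, AGO2 had 0.295, and 1752 genes had an unadjusted p under 0.05, against 2595 with edgeR's chi-square test. Without an expression filter, at a mean log2 CPM of 3 or more, with adjustment over the filtered genes and after centring on the median of 0.0039, the counts stayed within 1.5 times, at 778, 654, 754 and 743. Leaving out chromosome 10, or the end of chromosome 8, chosen after seeing the data, left 711 (385 and 326) and 709 (419 and 290). The 1120 differences from the ANKRD52 knockout became 94 with the sum of both squared errors and 525 at an adjusted p under 0.01.

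Of 165 named genes that were called, 84 passed at 0.01 and 163 after centring, NRAS and JUN being lost. For 4 of 57 lists the mean had the opposite sign to the median: decay enzymes, AU-rich element proteins, miR-21 targets and neuropilins with their partners, where NRP1 alone was called. Seed differences were above 0 for 24 of 25 epithelial families with the 8-base match, the longest UTR and the stricter level, and for 23 with at least 2 matches. Of the 6 families of other tissues, 6 were above 0 with each of the former settings and 5 with at least 2 matches. No paired analysis was possible because the tables hold no values per library; leaving out a replicate was not run for the same reason. Depth is unknown, so no limit on low genes can be given beyond the assumed level of 3 reads.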

Other observations

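Some gene groups not described above also held calls. Among the BCL2 family MCL1 rose 1.19-fold, beside PMAIP1 and BCL2L1, and BCL2 fell 1.67-fold. In the MYC network MLX and MXD1 rose 1.30-fold and 1.49-fold and MYCL1 fell by 0.58 on the log2 scale. The annexins ANXA5 and ANXA3 rose 1.36-fold and 1.62-fold, the methyl-CpG binder MBD2 and the demethylase TET3 1.26-fold and 1.24-fold, and GCLM, a glutathione enzyme, by 0.49 on the log2 scale. The transcription factor KLF12 fell 1.62-fold, the lysosomal protease CTSH 1.68-fold and the sterol regulator INSIG1 1.24-fold, and the sterol receptor NR1H2 rose 1.30-fold. Of 6 APOBEC3 genes 0 passed with the authors' edgeR test, all 6 lay above 0, and the best of them, APOBEC3C, stood at 0.47 on the log2 scale (adjusted p = 0.0574). SECTM1, a secreted immune ligand, rose 2.72-fold (adjusted p = 1.22e-10, authors' deposited table) from an implied 2.33 CPM.

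Of 357 genes named ZNF, 5 rose and 10 fell (median -0.085). The falls are 2.80% of this class, close to the 2.75% of all genes, and the share that rose was below the 3.53% of all genes. Of the 10 falls, 5 lie in the chromosome segment that holds AGO2. That segment also held other falls with the smallest p, in RECQL4 (1.80-fold), TONSL (1.65-fold), ZNF251 (2.09-fold) and JRK (1.71-fold), and its 74 genes hold 11.3% of all genes that fell. Medians of whole chromosomes ran from -0.12 (chromosome 8) and -0.10 (chromosome 19) to 0.064 (chromosome 13). On chromosome 10, 34 of 469 genes tested rose (7.25%, against 3.53% of all genes) and 1 fell. Chromosomes 7 and 6 came next, with 35 of 544 (6.43%) and 31 of 515 (6.02%) rising and 5 and 6 falling. A high share of rises is thus not particular to chromosome 10, and lists were not counted without chromosomes 7 or 6. On chromosome 19, 44 of 822 fell (5.35%, against 2.75% of all genes) and 12 rose (1.46%). Small nucleolar RNA host genes had a median of -0.20 with 1 of 13 above 0, where SNHG9 and SNHG12 fell 1.55-fold and 1.31-fold. The letters TCACNCCAC, 1 spelling of a sterol response element, stood in 1.13% of all promoter windows and in 0 of 14 cholesterol synthesis genes with a window.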
